A study of Mus musculus with 17 samples.

Results

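The genes described here are those of cholesterol synthesis, fatty acid synthesis and triglyceride storage, read in the liver of Afp knockout mice against wild-type liver. A list of 56 genes was matched to the symbols of the array's probes, and 43 of them had a probe, 60 probes in all, among 9030 named genes on the array. The sterol branch held 13 measured genes (12 of 17 listed synthesis enzymes and 1 of 4 regulators or carriers), the fatty acid branch 15 and the triglyceride branch 15. No probe carried the symbol of Idi1, Lss, Tm7sf2, Nsdhl, Acat2, Srebf2, Insig1, Stard4, Acaca, Acss2, Elovl2, Srebf1 or Plin5, and these genes were not analysed here.

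Afp encodes alpha-fetoprotein, the main serum protein of the fetus, and the labels call the mutant line AFP1 knockout. The adult mutants were 6 males aged 17 weeks, set against a pool of liver RNA from 6 wild-type males of the same age. Of these, 5 were hybridised in both dye orientations and 1, animal 5, with the mutant in Cy5 alone, which gave 11 arrays. The fetal mutants were 6 embryos, 3 male and 3 female, set against a pool of 4 wild-type animals on 1 array each, always with the mutant in Cy5. The labels give the embryonic day as 7.5. The values used here cannot test that figure, so the stage of these embryos is treated as unknown. They are called fetal below without a day, and no result rests on it. The labels also call the fetal pool male on 2 arrays and female on 4, although they list the same animals. The labels used here name neither the strain nor how the allele was made. Each value was read as a log2 ratio of mutant over pool, averaged over the probes of a gene. Such ratios hold no level, so neither the tissue label nor the abundance of any gene could be checked from them. Wild-type animals were pooled, and their own variation therefore enters none of the tests.

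Cholesterol is built in the cell from acetyl-CoA by way of mevalonate, farnesyl diphosphate and squalene, and the liver is a main site of this route. Fatty acids are built from the same acetyl-CoA, made from citrate, and are then elongated, desaturated and esterified to glycerol for storage in droplets or export in lipoproteins. SREBP transcription factors, held back by SCAP and INSIG proteins when sterols are plentiful, drive many of these enzymes together. In the liver ChREBP (Mlxipl) and LXR alpha (Nr1h3) also act on the fatty acid genes.

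The arrays carried 20078 to 20697 values of 20794 probes, with array medians of -0.105 to 0.085 in adults and -0.016 to 0.025 in embryos. Afp averaged -8.40 ± 0.23 in the embryos (SD, n = 6), where it is highly expressed in wild type, and -0.03 ± 0.19 in the adults (SD, n = 6), where it is normally nearly silent. The names of the fetal rows were moved by 11 rows, because probes of the same gene agreed best at that offset in 5 of 6 embryos and the adult dye effect did so in 5 of 6. Embryo 5 was the exception for the first measure and embryo 6 for the second, so the naming rests on both together, and counts without each of them are given below. That fetal values run mutant over pool is an inference from Afp and is not stated in the labels. In the adults Afp lay near 0 and cannot show the direction, so mutant over pool was assumed there. After the move Pparg had no named fetal value, and 42 members were tested in the embryos.

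In the fetal livers, 1 member passed the test over all features and rose: Sc5d, which introduces the C5 double bond late in cholesterol synthesis. Its ratios were 0.60, 0.64, 0.50, 0.58, 0.56 and 0.49 in embryos 1 to 6, a mean of 0.56 ± 0.06 (SD, n = 6, limma adjusted p = 0.0330). All 6 embryos lay close together and above the pool. Among all 17242 features 26 passed, or 0.151%, with 10 higher (0.058%) and 16 lower (0.0928%). With any 1 embryo left out Sc5d averaged 0.54 to 0.57 but no longer passed, at adjusted p of 0.0523 to 0.159, and 2 to 5 features passed in all. In bulk liver, fewer cells of a type and less RNA per cell cannot be told apart.

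More members lay above 0 than below. Ratios were above 0 in every embryo for 12 of 42 members, or 28.6%, against 8.27% of all features, and below 0 in every embryo for 1 member, against 7.5% of all features. Leaving out embryo 5 or embryo 6, or embryo 1, gave 12, 12 and 15 members above 0 in every remaining embryo, against 11.4%, 11.9% and 10.7% of all features. These counts without an embryo were added after seeing the data. An unadjusted p under 0.05 with a higher ratio was reached by 12 members, against 10.9% of all features, and with a lower ratio by 3 members, against 9.88%. Mean ratios were above 0 for 11 of 13 sterol, 9 of 14 fatty acid and 10 of 15 triglyceride genes, against 51.0% of all features. The medians over genes were 0.13 in the sterol, 0.08 in the fatty acid and 0.06 in the triglyceride branch, against 0.00 over all features. Of 11 listed hepatocyte markers, 8 were measured in the embryos, and 2 of 8 (25.0%) were above 0 in every embryo. Their means were above 0 for 5 and below for 3, with a median of 0.15. The part of hepatocytes in the fetal ratios was not tested.

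**Figure D1:**
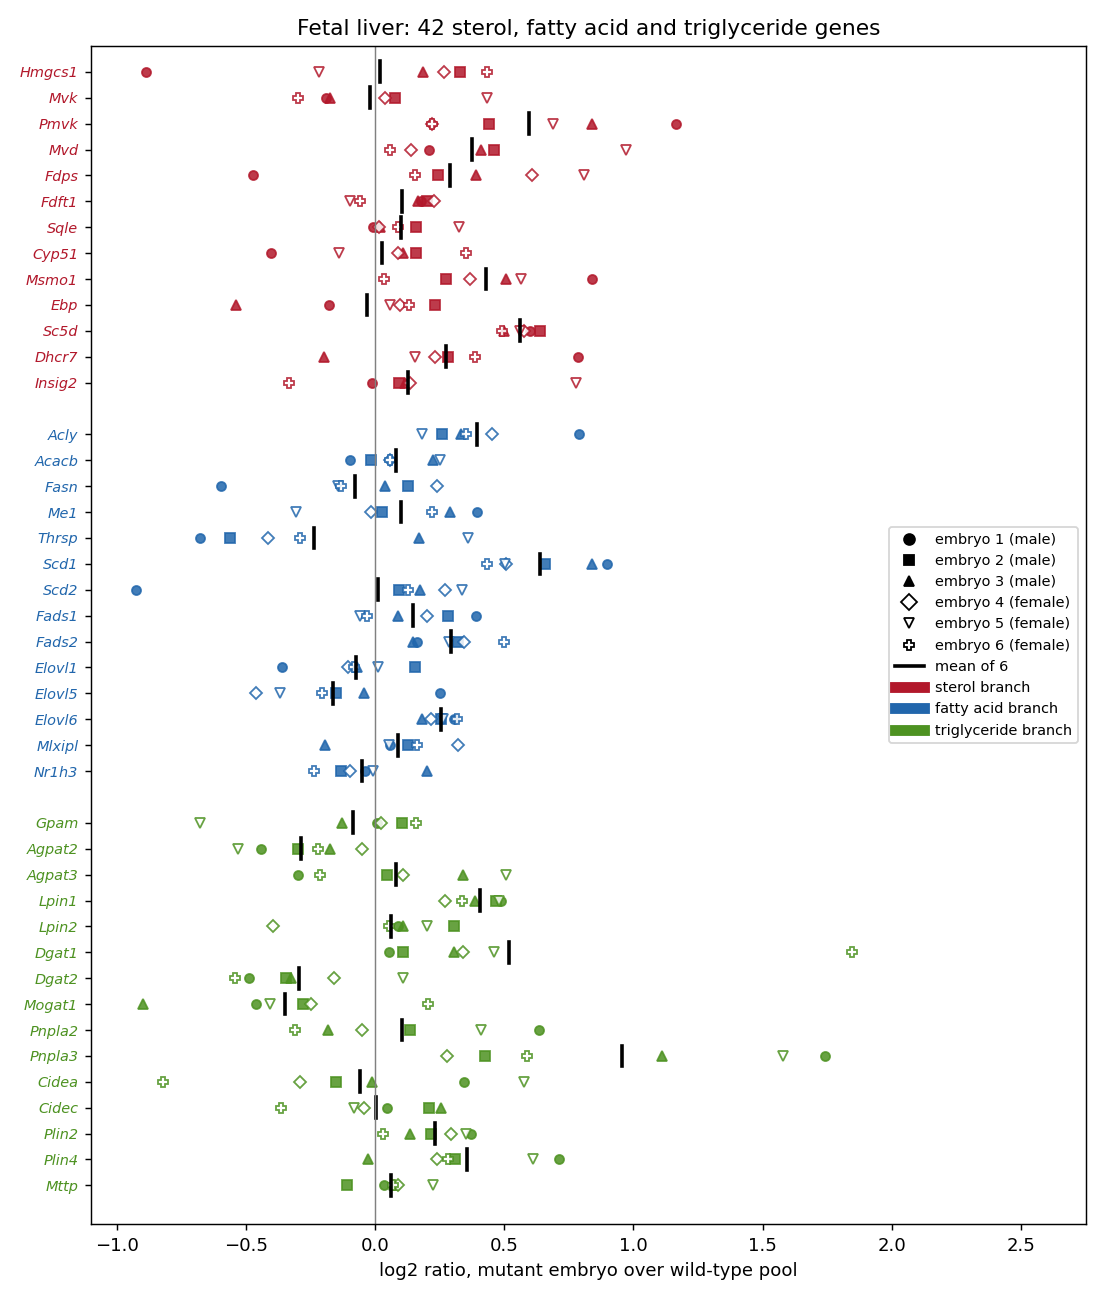
Log2 ratio of mutant embryo over wild-type pool on the horizontal axis, with 1 row for each of 42 genes, 1 symbol for each embryo and a bar at the mean of 6. The 6 embryos of Sc5d lie between 0.49 and 0.64, while Hmgcs1 spreads from -0.89 to 0.43.

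Early in the sterol branch, Hmgcs1, the synthase that makes HMG-CoA, had fetal ratios of -0.89, 0.33, 0.18, 0.27, -0.22 and 0.43 in embryos 1 to 6. Embryos 1 and 5 thus lay below the pool and the other 4 above it. Its 2 probes disagreed: the probe with the tighter values averaged 0.22 ± 0.10, and the other averaged -0.18 ± 0.94 with embryo 1 at -1.91. Pmvk, the phosphomevalonate kinase, read 1.17, 0.44, 0.84, 0.22, 0.69 and 0.22, a mean of 0.60 ± 0.37 (SD, n = 6, limma adjusted p = 0.0906). Mvd, which decarboxylates mevalonate diphosphate, ran from 0.06 in embryo 6 to 0.97 in embryo 5 and averaged 0.37 ± 0.33 (adjusted p = 0.152). Both were above the pool in all 6 embryos, and neither passed. Mvk, the kinase between HMG-CoA reduction and Pmvk, averaged -0.02 ± 0.26, with 3 embryos on each side of 0.

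Later in the same branch, Msmo1, which removes methyl groups at C4 of the sterol, read 0.84, 0.27, 0.51, 0.37, 0.56 and 0.04 (mean 0.43 ± 0.27, SD, n = 6, adjusted p = 0.101). Its order of embryos was not that of Sc5d, whose range was narrower. Fdps, the farnesyl diphosphate synthase, averaged 0.29 ± 0.44 with embryo 1 at -0.47 and the other 5 above 0. Dhcr7, which reduces 7-dehydrocholesterol to cholesterol, averaged 0.27 ± 0.32 with embryo 3 at -0.20. Fdft1 (squalene synthase), Sqle (squalene epoxidase), Cyp51 (lanosterol demethylase) and Ebp (sterol isomerase) had means from -0.03 to 0.10. Insig2, the INSIG protein that holds SCAP in the endoplasmic reticulum, averaged 0.13 ± 0.36.

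Promoters are shown for Sc5d, the member that rose, for Msmo1, a neighbour in the pathway above the pool in every embryo, and for Hmgcs1, whose ratios varied most between adult animals among the sterol genes. Each window runs from 250 bases before to 50 after the start of the RefSeq gene on GRCm38.p6. They lie at chr9:42264251-42264550 (minus strand, Sc5d), chr8:64733529-64733828 (minus strand, Msmo1) and chr13:119690101-119690400 (plus strand, Hmgcs1). The sequences are given 5′ to 3′ on the gene's strand. Capitals mark the letters CCAAT, the core bound by NF-Y, the letters CACGTG, an E-box, and the letters TCACNCCAC, a sterol response element bound by SREBP, each searched on both strands.
Sc5d: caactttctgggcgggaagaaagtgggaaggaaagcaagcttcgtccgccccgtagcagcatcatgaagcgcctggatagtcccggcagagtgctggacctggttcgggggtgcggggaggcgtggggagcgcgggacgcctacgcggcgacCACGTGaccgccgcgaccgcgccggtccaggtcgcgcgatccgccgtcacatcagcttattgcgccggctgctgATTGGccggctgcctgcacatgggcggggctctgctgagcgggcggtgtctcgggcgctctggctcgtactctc
Msmo1: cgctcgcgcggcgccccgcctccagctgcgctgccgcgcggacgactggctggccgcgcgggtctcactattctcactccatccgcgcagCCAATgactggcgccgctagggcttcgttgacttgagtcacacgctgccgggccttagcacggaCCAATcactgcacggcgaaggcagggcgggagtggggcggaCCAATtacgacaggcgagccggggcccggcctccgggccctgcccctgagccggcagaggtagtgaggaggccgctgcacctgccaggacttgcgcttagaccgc
Hmgcs1: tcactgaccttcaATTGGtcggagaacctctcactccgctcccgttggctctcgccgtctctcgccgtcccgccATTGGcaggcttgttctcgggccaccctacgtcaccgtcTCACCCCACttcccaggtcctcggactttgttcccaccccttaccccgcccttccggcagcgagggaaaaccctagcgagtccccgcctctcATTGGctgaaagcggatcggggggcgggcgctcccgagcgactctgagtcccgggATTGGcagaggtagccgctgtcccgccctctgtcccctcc

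In these windows Sc5d held CACGTG at -98 and CCAAT on the opposite strand at -24, counted from the start site to the first base of the match. Msmo1 held CCAAT 3 times, at -160, -96 and -55. Hmgcs1 held TCACNCCAC at -137 and CCAAT on the opposite strand at -237, -176, -45 and 11. The matches did not overlap. Promoter entries were found for 34 members and for 9 of the 12 measured sterol enzymes, which had 12 windows. CCAAT was present in 9 of these 12 windows (75.0%, all 9 genes), against 37.4% of 32851 promoters of the same length. CACGTG was present in 2 of 12 (16.7% against 7.15%) and TCACNCCAC in 1 of 12 (8.33% against 1.24%), that of Hmgcs1. In the fatty acid branch, CCAAT was present in 10 of 18 windows (55.6%) and TCACNCCAC in 1, that of Mlxipl, and in the triglyceride branch in 6 (37.5%) and 0 of 16 windows. A match describes the letters and is not evidence of binding.

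Fatty acid genes were led by Scd1, the stearoyl-CoA desaturase that makes monounsaturated fatty acids. Its fetal ratios were 0.90, 0.66, 0.84, 0.51, 0.50 and 0.43 in embryos 1 to 6, a mean of 0.64 ± 0.19 (SD, n = 6). The 3 male embryos all lay above the 3 female ones, and all 6 above the pool. The limma adjusted p was 0.0504, just past the threshold of 0.05, and under 6 of 14 alternative settings Scd1 passed. Scd2, its paralog, averaged 0.01 ± 0.47, with embryo 1 at -0.92 and the other 5 between 0.09 and 0.34.

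Acly, which splits citrate into the acetyl-CoA used by both routes, read 0.79, 0.26, 0.33, 0.45, 0.18 and 0.35 (mean 0.39 ± 0.21, SD, n = 6, adjusted p = 0.0914). Every embryo was above the pool, and embryo 1 stood highest. Fasn, the fatty acid synthase that follows it, averaged -0.08 ± 0.29, and Thrsp, a lipogenic regulator, -0.24 ± 0.41. Acacb, the mitochondrial acetyl-CoA carboxylase, averaged 0.08 ± 0.14 and Me1, the NADPH-yielding malic enzyme, 0.10 ± 0.25. In this group of 5 synthesis genes, 0 passed.

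Among the desaturases and elongases, Elovl6, which lengthens palmitate, read 0.31, 0.26, 0.18, 0.22, 0.26 and 0.32 (mean 0.26 ± 0.05, SD, n = 6, adjusted p = 0.0918). That spread belongs to the mean of 4 probes, whose own means ran from 0.13 to 0.48 with SDs of 0.25 to 0.37. Fads2, the delta-6 desaturase, lay above the pool in all embryos (0.29 ± 0.13, adjusted p = 0.100). That holds for the mean of 2 probes: 1 read -0.05 in embryo 1 and the other -0.14 in embryo 3. Fads1, the delta-5 desaturase, averaged 0.15 ± 0.18, with 1 of its 3 probes at 0.46 and the other 2 near 0. Elovl5, which acts on polyunsaturated fatty acids, averaged -0.16 ± 0.25, and Elovl1, of very long chains, -0.08 ± 0.17. The transcription factors Mlxipl and Nr1h3 averaged 0.09 ± 0.17 and -0.05 ± 0.15.

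In triglyceride assembly, Lpin1, the phosphatidate phosphatase that yields diacylglycerol, read 0.49, 0.47, 0.39, 0.27, 0.48 and 0.34 (mean 0.40 ± 0.09, SD, n = 6, adjusted p = 0.0655). All embryos were above the pool, but 1 of its 3 probes averaged 0.01 and the other 2 averaged 0.67 and 0.54. Agpat2, an acyltransferase that makes phosphatidate, was the member below the pool in every embryo, at -0.29 ± 0.18 (adjusted p = 0.124). Dgat2, which adds the last acyl chain, averaged -0.29 ± 0.24, and Mogat1, which acylates monoacylglycerol, -0.35 ± 0.36, each below 0 in 5 of 6 embryos. Dgat1, an unrelated enzyme with the same reaction as Dgat2, averaged 0.52 ± 0.67, with embryo 6 at 1.85 and the others between 0.06 and 0.46.

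Of the droplet and export genes, Pnpla3, a patatin-like lipase of the droplet surface, had the highest fetal mean of all members. It read 1.74, 0.43, 1.11, 0.28, 1.58 and 0.59, a mean of 0.95 ± 0.62 (SD, n = 6, adjusted p = 0.0891). Plin2, the coat protein of liver droplets, was above the pool in every embryo at 0.23 ± 0.13 (adjusted p = 0.136). Of its 2 probes, 1 read -0.09 in embryo 6. Plin4, another coat protein, averaged 0.36 ± 0.27 with embryo 3 at -0.03. Mttp, which loads lipid onto apolipoprotein B, averaged 0.06 ± 0.11. The remaining droplet genes, Pnpla2, Cidea and Cidec, had means from -0.06 to 0.11 and values on both sides of 0.

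Because every fetal array had the mutant in Cy5, genotype and dye cannot be told apart in the embryos. The adult dye swaps give a measure of the dye effect, the difference between both orientations divided by 2, averaged over 5 animals. This holds only if the Cy3 arrays already run mutant over pool, which the labels do not state. If they do not, the same difference measures mutant over pool and not dye. This dye profile was 0.90 for Pnpla3, 0.74 for Dgat1, 0.25 for Fads2 and -0.37 for Agpat2. After its subtraction the fetal means were 0.06 for Pnpla3, -0.22 for Dgat1, 0.04 for Fads2 and 0.08 for Agpat2. The values of Sc5d (0.41), Scd1 (0.60), Pmvk (0.54), Mvd (0.49), Msmo1 (0.49), Acly (0.45), Lpin1 (0.56), Elovl6 (0.25) and Plin2 (0.43) stayed above 0.2. Of the 12 members above 0 in every embryo, 11 kept a mean above 0 and 9 a mean above 0.2. These 12 were picked by the same fetal values, and the share of all features was not counted after the subtraction. The counts therefore describe these 12 alone. Embryo 6 showed no such dye profile, so the subtraction need not suit every embryo.

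**Figure D2:**
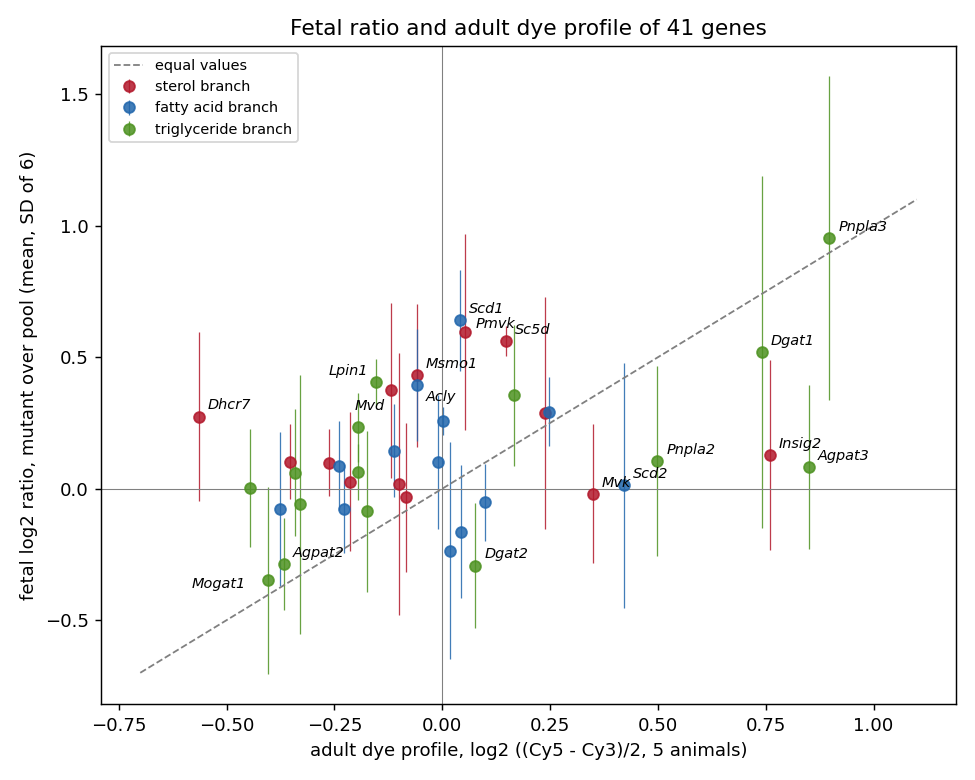
Fetal log2 ratio (mean and SD of 6 embryos) against the adult dye profile, also on the log2 scale, for 41 genes, with a dashed line where both are equal. Pnpla3 lies near the line, at 0.95 against a dye profile of 0.90, while Scd1, Pmvk and Sc5d lie above it. Acacb is left out because 1 adult array read -16.9. The dye profile takes the Cy3 arrays as already mutant over pool.

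In the adult livers 0 of 43 members passed, as did 0 of 17039 features (0.0%). By limma without adjustment 1314 features (7.71%) had a p under 0.05, and 4 members did so, all lower, against 4.35% of all features lower. These were Ebp, Me1, Elovl5 and Pparg. The adult animals differed more than the embryos did: the median SD of a member was 0.42 between adults and 0.26 between embryos, against 0.35 and 0.25 over all features. Means were below 0 for 31 of 43 members, or 72.1%, against 48.1% of all features: 10 of 13 sterol, 12 of 15 fatty acid and 9 of 15 triglyceride genes. Among the fatty acid genes so counted is Acacb, at -1.03 ± 3.77 (SD, n = 6) through 1 array that read -16.9. Without that reading its mean was 0.35. The branch medians were -0.12, -0.18 and -0.02, against 0.01 over all features. These counts rest on the direction taken for the Cy3 arrays: with those arrays turned in sign, 29 of 43 members (67.4%) were below 0, against 60.9% of all features. The branches then held 8 of 13, 10 of 15 and 11 of 15 such genes, with medians of -0.13, -0.11 and -0.21, against -0.09 over all features.

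Pparg, the nuclear receptor of adipogenic and steatotic gene expression, read -0.32 and -0.28 in animal 1 (mutant in Cy5, then in Cy3). In animals 2, 3 and 4 it read -0.44 and -0.40, -0.80 and -0.57, and -0.73 and -0.40. Animal 5, on Cy5 alone, read -0.42, and animal 6 read -0.10 and 0.16. The mean over animals was -0.39 ± 0.25 (SD, n = 6), below 0 in 5 of 6 animals, with limma adjusted p = 0.639. Elovl5 averaged -0.41 ± 0.43 (adjusted p = 0.639) and was the only member below 0 in all 6 adult animals, against 2.9% of all features. No member was above 0 in all 6, against 3.43% of all features. With the Cy3 arrays turned, Elovl5 read 0.26 in animal 1 and 0.53 in animal 3, and averaged -0.13. In that setting 6 other members were below 0 in every animal, against 7.39% of all features, and 6 were above it, against 12.3%. Those below were Fdft1, Sqle, Pparg, Lpin2, Mogat1 and Cidea. Ebp averaged -0.43 ± 0.41 and Me1 -0.33 ± 0.27, each below 0 in 5 of 6 animals (adjusted p = 0.639 each).

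Scd1 had the widest spread of animal means among the 40 members with both orientations in 5 adult animals. Animals 1 to 4 read 0.60 and -0.22, 0.81 and 0.84, -0.58 and -0.78, and -2.08 and -2.12, each with the mutant in Cy5 first and in Cy3 second. Animal 5 read -0.41 in Cy5, and animal 6 read -1.20 and -0.58. The mean was -0.51 ± 0.997 (SD, n = 6, adjusted p = 0.688), so no shift from the pool was shown. The arrays of animals 2, 3 and 4 lay close to each other, while those of animal 1 had opposite signs and those of animal 6 lay further apart. The SD of the 5 animal means was 1.11, against 0.26 for the difference between the orientations divided by 2, while over all features the medians of these SDs were 0.27 and 0.30.

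The same was asked of every member with both orientations in all 5 animals. The deviations of an animal from the mean of its orientation fell on the same side in all 5 animals for 4 of 40 members, against 3.64% of all features. These were Scd1, Fdps, Hmgcs1 and Agpat2. At least 4 of 5 animals did so for 13 of 40 members, against 17.1% of all features. Hmgcs1 averaged 0.61, 0.23, -0.76, -0.70, -1.06 and -0.63 in animals 1 to 6, and Fdps 0.27, 0.27, -0.75, -0.84, -0.14 and -0.68. In these means animals 1 and 2 were above the pool for both genes and for Scd1, and animals 3 to 6 below it. Msmo1 had the same division of means, at 0.26, 0.06, -0.84, -0.63, -0.48 and -0.33. Some of these means join arrays of opposite sign. In Cy5 and then Cy3, animal 2 read -0.23 and 0.69 for Hmgcs1 and -0.23 and 0.34 for Msmo1. In the same order, animal 1 read 0.73 and -0.195 for Fdps.

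**Figure D3:**
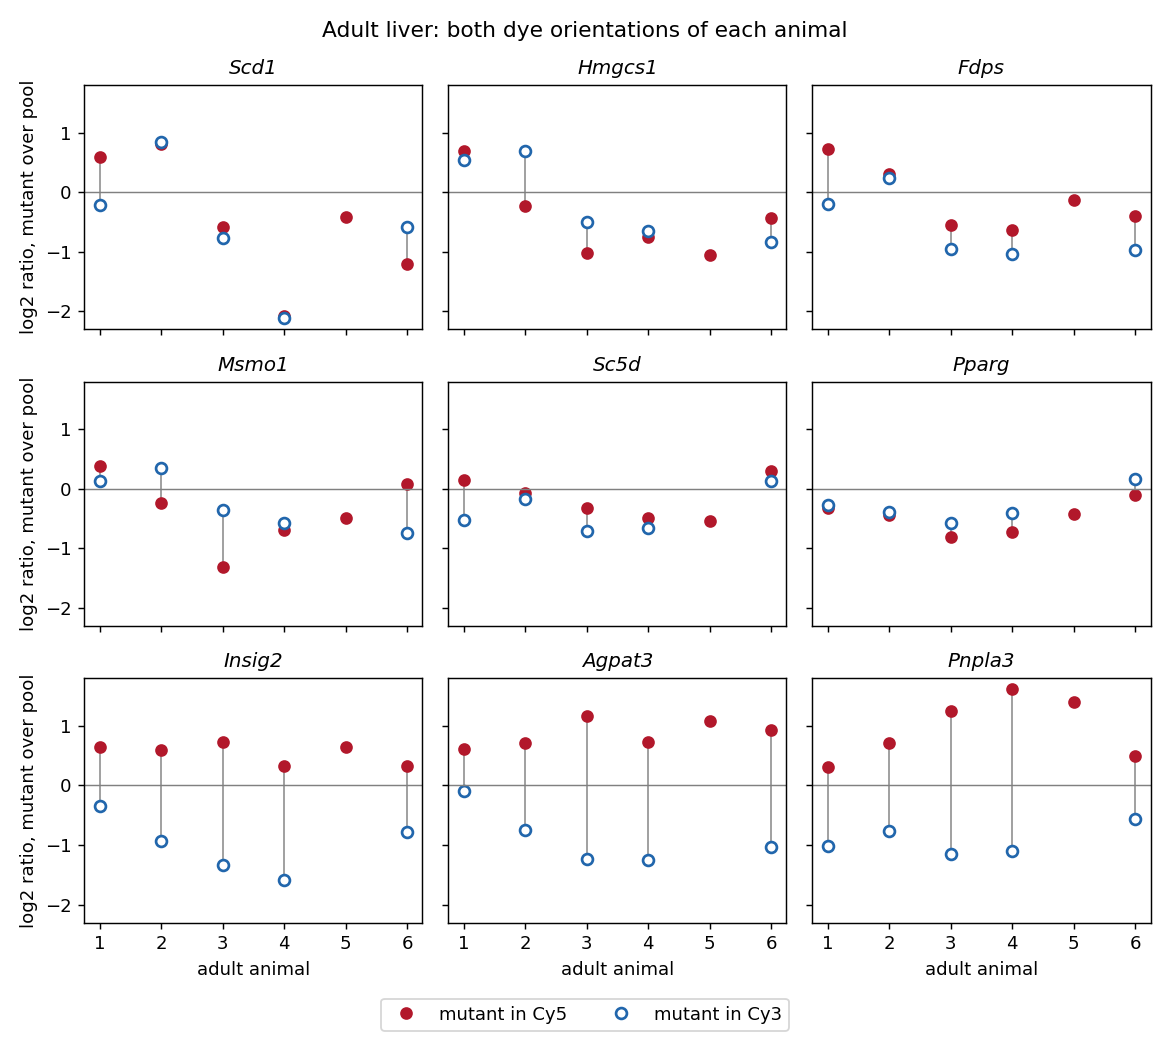
Log2 ratio of mutant over pool in each of 6 adult animals, with the mutant in Cy5 (filled) and in Cy3 (open), joined within an animal, for 9 genes. In Scd1 both arrays of animal 4 read near -2.1, whereas in Insig2, Agpat3 and Pnpla3 the orientations lie on opposite sides of 0 in the 5 animals measured with both.

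Averaged over the arrays of an animal, the medians of the sterol and fatty acid branches divided in the same way. They were above 0 in animals 1 and 2 and below it in animals 3 to 6, and those of the triglyceride branch did not divide so. The division did not hold in each orientation alone. With the mutant in Cy5, the sterol median of animal 2 was -0.23 and the fatty acid median of animal 1 was -0.04. With the mutant in Cy3, the sterol medians of animals 1 and 6 were -0.01 and 0.0015, and the fatty acid median of animal 1 was -0.095. Over both orientations, the median sterol gene stood at 0.15, 0.03, -0.31, -0.35, -0.14 and -0.23 in animals 1 to 6. The median fatty acid gene stood at 0.07, 0.06, -0.09, -0.54, -0.41 and -0.21. The triglyceride medians were between -0.05 and 0.14 in 5 animals and -0.41 in animal 5. Of 11 listed hepatocyte markers, 9 were measured, 8 of them averaged below 0, and their medians in animals 1 to 6 were 0.20, -0.07, -0.73, -0.79, -0.08 and -0.74. They were lowest in animals 3, 4 and 6, which also had the lowest sterol medians, while animal 5, with low fatty acid and triglyceride medians, was close to animal 2. Endothelial markers, with 4 of 6 measured, were below 0 in 4 of 4, and their medians were -0.17, -0.21, -0.83, -0.61, -0.04 and -0.49. Erythroid markers, with 3 of 8 measured, were below 0 in 3 of 3, and their medians ran from -0.89 in animal 5 to 0.20 in animal 3. Adipocyte markers, with 6 of 8 measured, had medians of -0.11 to 0.09, and 3 of 6 averaged above 0. Cholangiocyte markers averaged above 0 in 3 of 5, stellate in 3 of 4, macrophage in 2 of 3 and exocrine pancreas in 1 of 3. Of all features, 48.1% averaged below 0. The part of these cells in the adult ratios was not tested. In the embryos the medians ran from -0.24 to 0.32 for 8 hepatocyte markers and from -0.01 to 0.43 for sterol genes, lowest in embryo 1 for both.

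**Figure D4:**
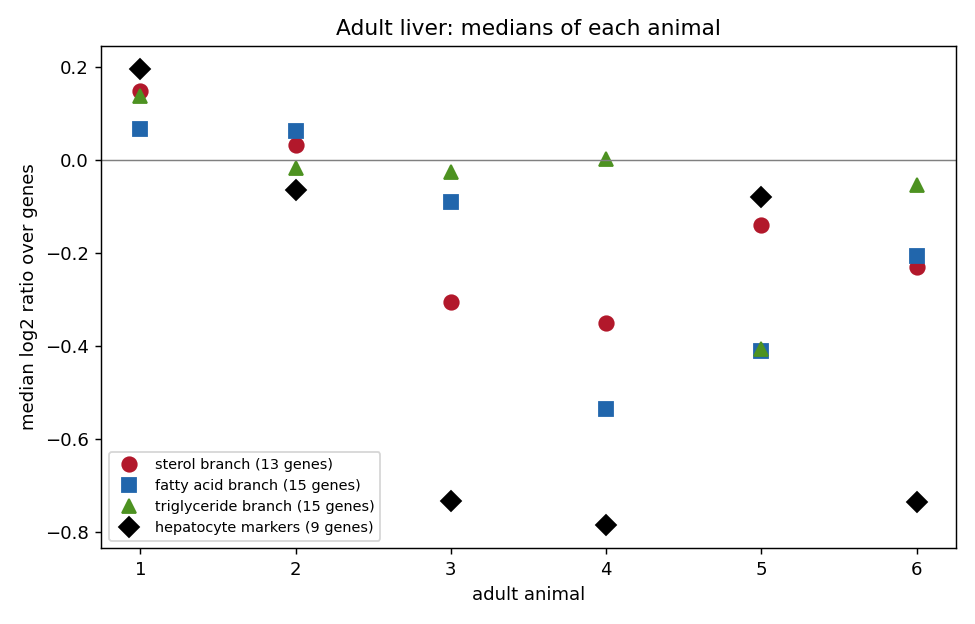
Median log2 ratio over the genes of each branch and over hepatocyte markers, for each adult animal (mean of both orientations, Cy5 alone in animal 5). Animal 1 is above 0 in all 4 lists, and animals 3, 4 and 6 hold the lowest hepatocyte medians, from -0.79 to -0.73.

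Insig2, Agpat3 and Pnpla3 gave opposite signs in the 2 orientations. Insig2 read 0.64, 0.59, 0.73, 0.33, 0.64 and 0.32 in animals 1 to 6 with the mutant in Cy5, and -0.34, -0.93, -1.34, -1.59 and -0.78 in animals 1 to 4 and 6 with the mutant in Cy3. Agpat3, an acyltransferase that makes phosphatidate, averaged 0.87 ± 0.22 in Cy5 (SD, n = 6) and -0.87 ± 0.48 in Cy3 (SD, n = 5). Pnpla3 averaged 0.97 ± 0.53 and -0.92 ± 0.24 in the same order. A pattern of all Cy5 arrays above 0 and all Cy3 arrays below 0 was seen in 3 of 42 members, against 6.13% of all features. With the Cy3 arrays turned in sign 5 of 43 members passed: Insig2, Agpat3, Pnpla3, Pnpla2 and Dgat1. In all, 1760 of 17039 features passed, a share close to that of the members. Which members passed rests on the direction taken for those arrays.

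The ages were compared on the arrays with the mutant in Cy5, adult minus fetal, so that a dye effect shared by both ages cancels. Embryo 6 did not show the adult dye profile, so such an effect need not cancel in it. Each age had its own wild-type pool, so age and pool cannot be told apart. All adults were male and 3 of 6 embryos female, so sex moves with age in part. These arrays are also those of the comparisons above, and the difference between the ages repeats their information. It passed for 0 of 42 members and for 23 of 16314 features (0.141%). The difference was below 0 for 30 of 42 members, or 71.4%, against 52.3% of all features, with 11 of 13 sterol, 11 of 14 fatty acid and 8 of 15 triglyceride genes. The branch medians were -0.48, -0.25 and -0.01, against -0.02 over all features. An unadjusted p under 0.05 was reached by 18 members, against 20.2% of all features in either direction. Of these, 15 were lower in adults, against 9.24% of all features, and 3 higher. Hepatocyte markers were also lower in adults: 7 of 8 differences were below 0 and 1 above, with a median of -0.42. Of these markers, 4 of 8 had an unadjusted limma p under 0.05 and were lower. Their part in the difference was not tested.

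Sc5d had adult ratios of 0.15, -0.08, -0.32, -0.49, -0.54 and 0.30 in animals 1 to 6, against the fetal values of 0.49 to 0.64. Every adult lay below every embryo, with means of -0.16 ± 0.35 in adults and 0.56 ± 0.06 in embryos (SD, n = 6 each, difference -0.72, limma adjusted p = 0.0697). Fdft1 averaged -0.62 ± 0.35 in adults and 0.10 ± 0.14 in embryos, also without overlap (difference -0.72, adjusted p = 0.0716). With adult means over both dyes that difference was -0.43. Lpin1 (difference -0.53, adjusted p = 0.0722) and Elovl6 (difference -0.36, adjusted p = 0.131) completed the 4 members whose adults lay wholly below the embryos, against 1.15% of all features.

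Scd1 differed by -1.12, with -0.48 ± 1.09 in adults and 0.64 ± 0.19 in embryos (SD, n = 6 each, adjusted p = 0.156). Msmo1 differed by -0.81 (adjusted p = 0.117) and Acly by -0.68 (adjusted p = 0.0786). In all 3 genes some adults lay among the embryos. Agpat3 was the member whose adults lay wholly above the embryos, at 0.87 ± 0.22 in adults and 0.08 ± 0.31 in embryos (difference 0.79, adjusted p = 0.0676), against 1.14% of all features. Its difference was 0.08 with adult means over both dyes. Mvk and Insig2 also had higher adult ratios at an unadjusted p under 0.05, by 0.51 and 0.41, but over both dyes their adult means were 0.20 and -0.09.

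Without adult animal 1, the difference between the ages passed for 8 of 42 members and for 1224 features, where 16314 features were tested with all animals. These members were Sc5d, Fdft1, Msmo1, Sqle, Acly, Lpin1 and Mttp, all lower in adults, and Agpat3, higher. Without embryo 5 it passed for 1 member, Agpat3, and 78 features. Leaving out any other animal gave 0 members and 4 to 18 features.

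**Figure D5:**
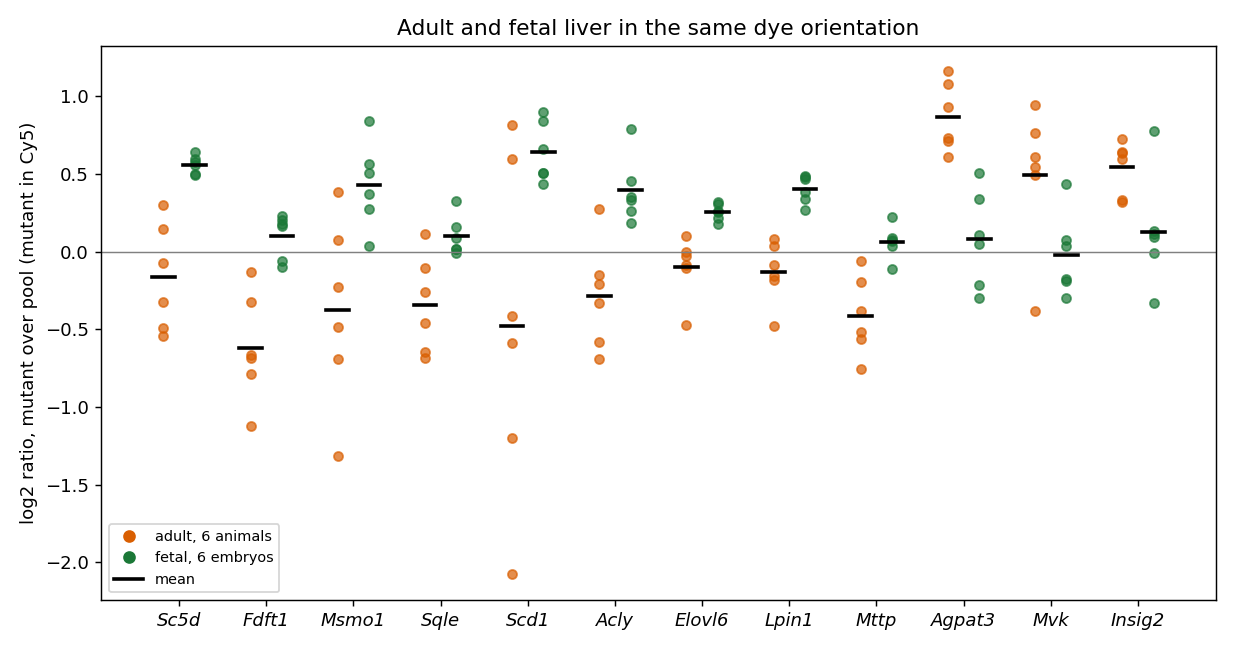
Log2 ratio of mutant over pool on arrays with the mutant in Cy5, for 6 adult animals (left of each pair) and 6 embryos (right), with a bar at each mean, for 12 genes. The adults of Sc5d, Fdft1, Elovl6 and Lpin1 all lie below the embryos, and those of Agpat3 all lie above them.

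Between female and male embryos, 0 of 42 members passed, and 2 of 17212 features did (0.0116%). Of the members, 0 reached an unadjusted p under 0.05, against 3.18% of all features. Dgat1 was higher in all 3 females, with means of 0.88 ± 0.84 in females and 0.16 ± 0.13 in males (SD, n = 3 each), against 4.74% of all features so placed. Scd1, Elovl5 and Cidec were lower in all 3 females, against 4.85% of all features. Scd1 averaged 0.48 ± 0.04 in females and 0.80 ± 0.12 in males, a difference of -0.32 (limma adjusted p = 0.998). Embryo 3, a male, was hybridised against the pool that the labels call female, so the labelled sex of the pool moves with that of the embryo in 5 of 6 arrays.

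Of 61 other genes of lipid and sterol handling that were listed, 31 had a probe. In the embryos 0 of 30 passed, with a median of 0.03 and 18 (60.0%) above 0, against 51.0% of all features. In the adults 0 of 31 passed, with a median of -0.05 and 14 above 0. The 17 below 0 were 54.8%, against 48.1% of all features. Between the ages 0 of 29 passed, with a median difference of 0.08. Among markers of other cells that a dissected liver could hold, Cela2a and Cpa1 of the exocrine pancreas fell in the embryos, to -1.30 ± 0.47 and -1.17 ± 0.43 (SD, n = 6, adjusted p = 0.0467 each). All 3 measured pancreas markers of 8 were below 0, with medians over them of -1.92 to -0.67 by embryo. Of the cholangiocyte markers, 5 of 7 were measured and 4 of 5 averaged below 0, with medians of -0.79 to 0.42 by embryo. Of the erythroid markers, 3 of 8 were measured and 3 of 3 averaged below 0, with medians of -0.42 to -0.07. Other lists did not fall: endothelial markers averaged above 0 in 2 of 2, stellate in 3 of 4 and adipocyte in 3 of 6. Of 2 macrophage markers, Clec4f averaged 0.52 and Marco -0.24. Without adjustment 3 of 5 cholangiocyte and 2 of 3 erythroid markers had a p under 0.05 by limma, all lower. Of all features 9.88% were lower at that p, and 0 markers of either list passed the adjusted test. Their part in the lipid gene ratios was not tested.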

How the data were processed

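RNA of single Afp mutant livers and of wild-type pools was labelled indirectly with Cy3 and Cy5 and hybridised to cDNA arrays, per the labels' protocols. The authors deposited 1 table of log ratios for 17 arrays, read here as log2, a base inferred from the range of the values. How images were read, corrected and normalized is not given in the sources used here. Probe names came from the platform annotation (12771 probes with 1 symbol), and promoter sequences from RefSeq (GRCm38.p6). The value table and labels give no build.

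Fetal names were moved by 11 rows for probes up to 20000, after comparing 5055 same-gene probe pairs at 121 offsets, and the last 794 fetal rows were left unnamed. Adult columns with the mutant in Cy3 were left as deposited, taken as already mutant over pool. Arrays of an animal were averaged first, then probes of a gene.

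Differences were tested with limma 3.58.1 in R 4.3.3 (lmFit, eBayes), over all features with values in at least 4 of 6 animals of a group, with Benjamini-Hochberg adjusted p under 0.05 as the threshold. The tests were checked on simulated data. The number of arrays limits the precision. Nothing in the labels says the embryos came from separate litters, so p-values measure the spread between these animals. The members, lists and named genes were chosen with earlier results of these data known. The text names every member that passed and, from each functional group, up to 4 with the smallest unadjusted p in each comparison, together with counts of 5 or fewer. Other members are named after their values were seen. Alternatives covered row naming, dye orientation, centring, extreme values, filters, the variance prior, probe summaries and leaving out each animal.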

Additional observations from a re-analysis of the deposited data

Results flagged for a closer look

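Within groups of 6, 85 sets of member values were tested for a single animal standing apart (Dixon's test, gap over range above 0.625), and 12 were flagged. Chance flags about 1 in 20 groups.

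In the embryos, Scd2 read -0.92 in embryo 1, against 0.09 to 0.34 in the others, and 1 of its probes alone read -2.29 there. Gpam, the acyltransferase that begins glycerolipid assembly, read -0.68 in embryo 5, against -0.13 to 0.16. Lpin2, a phosphatidate phosphatase, read -0.40 in embryo 4, against 0.05 to 0.31. Dgat1 read 1.85 in embryo 6, against 0.06 to 0.46.

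In the adults, animal 5 stood apart for 5 genes: Fdft1 at -1.12 (others -0.37 to 0.02), Lpin1 at -0.48 (others 0.00 to 0.15), Dgat1 at 1.46 (others -0.19 to 0.14), Pnpla3 at 1.40 (others -0.35 to 0.26) and Plin4 at -1.06 (others -0.25 to 0.22). This animal was measured with the mutant in Cy5 alone, so its values are not means over both orientations. The adult dye profile, with the Cy3 arrays taken as mutant over pool, was 0.74 for Dgat1 and 0.90 for Pnpla3. It was -0.35 for Fdft1, -0.15 for Lpin1 and 0.17 for Plin4. The part of dye in the values of animal 5 was not tested.

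Animal 1 stood apart for Cidec, which fuses droplets, at 2.52 (others -0.12 to 0.39), and for Plin2, at 0.96 (others -0.38 to -0.03). Both orientations of that animal were above 0, at 1.46 and 3.59 for Cidec and at 0.14 and 1.79 for Plin2. Acacb averaged -8.62 in animal 4, against -0.36 to 1.52 in the others, because 1 array read -16.9. Without that reading its adult mean was 0.35 ± 0.71 (SD, n = 6).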

How the results depend on the processing

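No paired analysis was possible because the adult replicate numbers count arrays, not animals, and the adult and fetal animals share no number by design. With fetal names as deposited, 0 members passed, the sterol median was -0.03 and Afp stood at 0.14, Sc5d at -0.063, Mvd at -0.03, Acly at -0.020, Elovl6 at -0.047 and Fads2 at -0.035, since other rows then carry those names. With the adult dye profile subtracted, 4912 features and 22 members passed in the embryos, the sterol and fatty acid medians were 0.36 and 0.13, and Agpat2 turned to 0.080. That fit treats the profile as free of error. The embryos gave 83 features without values beyond 10, 61 with a value in all 6 embryos, 81 with a robust variance prior, 88 with each probe on its own and 43 with all rows moved (added after seeing the data), each with 2 members, Sc5d and Scd1. Without each replicate in turn it was 2 to 5 features and 0 to 0 members.

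In the adults, turning the Cy3 arrays gave 1760 of 17039 features and 5 of 43 members, with the triglyceride median at -0.21 and Sc5d at 0.032. Arrays with the mutant in Cy5 alone gave 1106 and 4, and in Cy3 alone 699 and 3, with the triglyceride median at 0.16 and Mttp at 0.0063. Between the ages, adult means over both dyes gave 9 features, a value in all 12 animals 36, and names as deposited 1579 with 5 members, a sterol median of -0.21 and Afp at -0.25. Leaving out 1 adult gave 5 to 1224 features (1224 without animal 1, 11 without animal 3 and 7 without animal 4) and 0 to 8 members. Leaving out 1 embryo gave 4 to 78 (78 without embryo 5) and 0 to 1. Between the sexes, leaving out 1 embryo gave 0 to 4 features and medians of -0.04 to 0.15 in the sterol, -0.039 to 0.039 in the fatty acid and -0.11 to 0.08 in the triglyceride branch, and 0 passed without values beyond 10 or with a value in all 6 embryos. For named genes, 370 of 406 settings kept direction and side of the threshold. Signal over background is not given, so its part in weak ratios is unknown.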
